A study of Homo sapiens with 4 samples.

Results

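The interferon-stimulated antiviral genes described here are 44 human genes, named by symbol, that make up much of the antiviral programme switched on by type I and type III interferons. They were found through the gene symbols of the array annotation, and 43 of the 44 had a probe, out of 20044 genes with one in the whole series. STAT2 was not analysed here. The 43 genes had 63 probes, and all 43 were above background on at least 1 array. The cultures carry the label HT-29, a human colorectal adenocarcinoma line, and were profiled on 4 Illumina HumanHT-12 V4 arrays on 2 chips, 1 array for each of 4 groups. On chip 1 were a control and cells given cyclopamine, a plant alkaloid known to bind and inhibit Smoothened in the Hedgehog pathway. On chip 2 were a control and cells given GANT61, known as a small-molecule blocker of GLI transcription factors. Cells received either compound at 20 µM for 48 h. The chip 2 control is labelled DMSO, the solvent, throughout. The chip 1 control is labelled DMSO in its title and treatment but tomatidine, an alkaloid related to cyclopamine, in its source name, so it is called the chip 1 control and neither reading is assumed.

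Interferons bind receptors at the cell surface, which activate the kinases JAK1 and TYK2. These phosphorylate the transcription factor STAT2, which joins IRF9 in a complex that enters the nucleus and binds a short DNA element, the interferon-stimulated response element (ISRE), in the promoters of many genes. The products detect viral RNA, degrade it, block its translation, trap virions at membranes or attach the ubiquitin-like protein ISG15 to other proteins, and cells of intestinal epithelium use the same programme against enteric viruses.

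The promoters were searched for the ISRE because it is the element through which these genes are known to be controlled. The windows, from RefSeq on build GRCh38.p14, run from 250 bases before to 50 bases after the annotated start of a gene, and 35 of the 44 genes had one. The core searched was GAAA, then any 2 bases, then GAAA, on both strands, with overlapping matches counted separately. It lay in 22 of the 35 windows (62.9%), against 996 of 27305 promoter windows of the same length in all (3.65%). The narrower form with C as the first of those 2 bases lay in 15 of 35 (42.9%), against 0.769% of all windows. A second element, GAS, searched as TTCNNNGAA, lay in 11 of 35 (31.4%), against 7.88%. Of the 22 genes with an ISRE core, 14 had several matches, and the nearest ended a median of 51 bases before the start. Below are 30 bases around the match nearest the start for 12 genes whose array values are given further on, written 5′ to 3′ along the strand of the gene, with the match in capitals. A match that reads TTTC, any 2 bases and TTTC is the core on the other strand.
ISG15 (chr1:1013380-1013409, plus strand): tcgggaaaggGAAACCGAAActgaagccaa
IFI6 (chr1:27672266-27672295, minus strand): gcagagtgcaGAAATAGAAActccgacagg
IFI44L (chr1:78620365-78620394, plus strand): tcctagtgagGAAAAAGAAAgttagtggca
IFIH1 (chr2:162318686-162318715, minus strand): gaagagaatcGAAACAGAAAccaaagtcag
DDX60 (chr4:168318786-168318815, minus strand): gaggagaaagGAAACCGAAActcccgccgg
HERC5 (chr4:88457035-88457064, plus strand): aaacattatgTTTCGTTTTCcactggagct
IFIT1 (chr10:89392510-89392539, plus strand): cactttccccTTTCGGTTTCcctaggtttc
IFITM1 (chr11:314024-314053, plus strand): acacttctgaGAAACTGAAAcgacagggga
OAS3 (chr12:112938452-112938481, plus strand): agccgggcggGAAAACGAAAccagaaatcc
IFI27 (chr14:94110631-94110660, plus strand): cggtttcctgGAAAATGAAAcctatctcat
ISG20 (chr15:88638937-88638966, plus strand): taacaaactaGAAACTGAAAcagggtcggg
MX1 (chr21:41420559-41420588, plus strand): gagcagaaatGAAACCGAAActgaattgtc

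The 250 bases before the start are shown whole for ISG15 and IFI27, which had large ratios with cyclopamine and hold their matches in different layouts. Capitals again mark the ISRE cores.
ISG15 (chr1:1013247-1013496, plus strand): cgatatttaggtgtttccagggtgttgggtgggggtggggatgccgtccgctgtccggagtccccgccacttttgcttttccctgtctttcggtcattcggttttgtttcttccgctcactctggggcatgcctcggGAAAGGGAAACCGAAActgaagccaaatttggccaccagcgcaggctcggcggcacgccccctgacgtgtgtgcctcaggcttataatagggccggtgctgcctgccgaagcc
IFI27 (chr14:94110486-94110735, plus strand): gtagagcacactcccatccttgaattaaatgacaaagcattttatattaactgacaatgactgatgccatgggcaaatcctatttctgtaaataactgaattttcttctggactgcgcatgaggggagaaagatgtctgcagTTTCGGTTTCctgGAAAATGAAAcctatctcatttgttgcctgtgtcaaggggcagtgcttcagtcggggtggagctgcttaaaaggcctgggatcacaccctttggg
In ISG15 the matches overlap on the strand of the gene, and in IFI27 they lie side by side on opposite strands. Genes with and without the core differed little in their array ratios with GANT61: the median log2 ratio was 1.45 for the 22 with it and 1.38 for 12 without it that had a probe. With cyclopamine the medians were 1.10 for 12 genes with the core and 0.85 for 8 without it, over genes above background on both arrays. Another 5 with the core were above background with the compound alone, and including them gave 1.44. These are descriptions of the genes listed, and a match is not a binding site shown by any measurement here. Windows counted as without the core can hold near forms of it, such as GAAACGAAA in those of OAS1 and RSAD2.

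**Figure D1:**
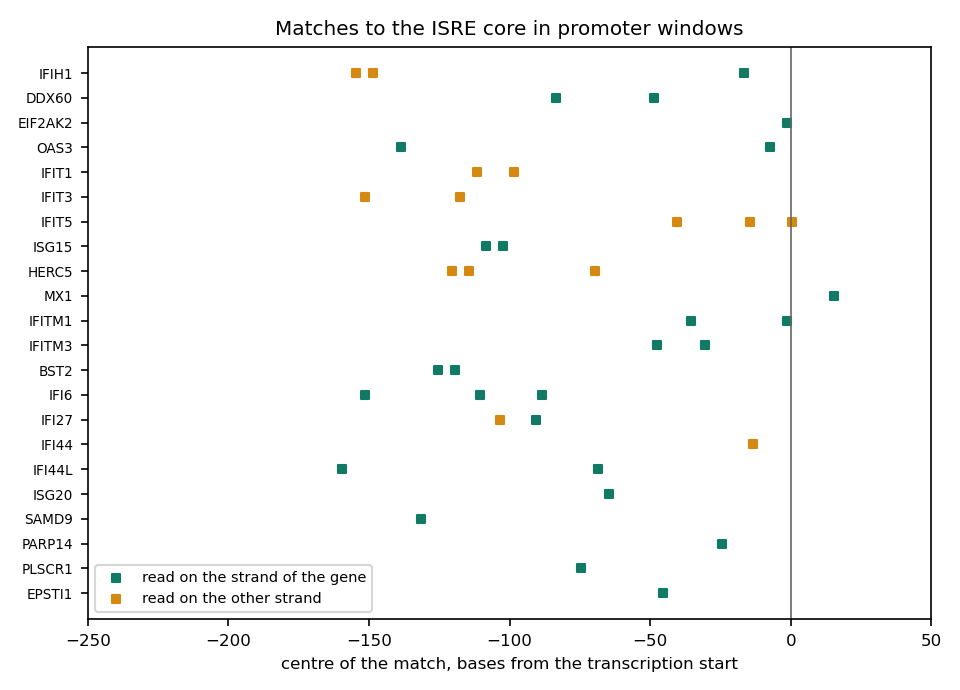
Positions of ISRE cores in the promoter windows of the 22 genes that hold at least 1. The horizontal axis is the distance of the match's centre from the annotated start in bases, each row is a gene, and colour gives the strand. Most matches lie before the start, and the MX1 match lies past it.

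Deposited intensities had medians of 72.8 to 91.1, and 28.5% to 36.1% of probes were above background, taken as a detection p under 0.01. Each group is 1 array, so no difference has a replicate check, and precision is limited by how few arrays there are. The chips stood apart: over all probes r was 0.982 and 0.983 within a chip and 0.873 to 0.877 between chips. Of 16 epithelial and colon markers, 4 were above background on each array of chip 1 and 14 on each of chip 2. Their summed intensity was 3308 to 3703 on chip 1 and 33882 to 40741 on chip 2. EPCAM, the epithelial adhesion molecule, had 81.0 and 80.2 on chip 1, below background, and 8032 and 6717 on chip 2. CDH1, KRT19 and LGALS4 were likewise under background on both chip 1 arrays, while VIM, the mesenchymal filament protein vimentin, had 3710 and 3112 there against 139 and 138 on chip 2. Mesenchymal markers were above background in 3 of 10 cases on each array of chip 1 and 1 of 10 on each of chip 2, leukocyte markers in 1 of 9 and 3 of 9, and 4 endothelial markers in none. Some markers also differed with the compounds: CD68, the only leukocyte marker tested with cyclopamine, had a log2 ratio of 1.75 there, and MUC13, an epithelial mucin, -1.26. With GANT61 the colon transcription factor CDX2 had -1.44 and VIL1, the microvillus protein villin, -1.08. Medians of the epithelial list were -0.07 over 4 tested genes with cyclopamine and -0.01 over 14 with GANT61. The arrays of chip 1 therefore go against an HT-29 label, so each compound was compared only with the control of its chip. Every cyclopamine ratio is between chip 1 arrays and every GANT61 ratio between chip 2 arrays, although normalisation and the choice of probe used all 4. With each chip normalised alone, 36 of the 43 genes were at least 2-fold higher with GANT61, against 35. The part of the marker differences in any result was not tested. In such bulk RNA, fewer expressing cells and less RNA per cell cannot be told apart.

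Nearly all of the interferon-stimulated genes were higher with GANT61, and many of those measurable on chip 1 were at least 2-fold higher with cyclopamine. With GANT61 all 43 could be tested, meaning that the treated or the control array was above background, and 35 were at least 2-fold higher and 0 lower. Among all 10439 genes tested with GANT61, 3.50% were higher by that measure and 2.03% lower. All 43 log2 ratios were above 0, from 0.39 to 2.89 with a median of 1.42, against a median of -0.01 over all genes. With cyclopamine 31 could be tested, and 16 had normalised ratios at least 2-fold higher and 0 lower, against 3.10% higher and 1.91% lower of 8999 genes. Counting genes below background in the control only by their lower bounds left 15 higher, without IFIT2, and 0 lower, against 1.77% and 0.633% of all genes. Their median log2 ratio was 1.07, or 0.94 when genes below background in the control were set to the lowest ratio their background allows, against -0.01 over all genes. By ratio at 1.5-fold, 42 of 43 were higher and 0 lower with GANT61, against 10.6% and 9.29% of all genes. With cyclopamine 21 of 31 were higher and 0 lower at 1.5-fold, against 9.80% and 7.82%.

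Detection shaped what could be tested. Of the 43 genes, 24 were above background in the chip 1 control, 31 with cyclopamine, 42 in the chip 2 control and 43 with GANT61. Over all genes these shares were 42.9%, 41.9%, 50.6% and 48.3%, against 55.8%, 72.1%, 97.7% and 100% of the interferon-stimulated genes. The 7 genes above background with cyclopamine but not in its control, IFIH1, DDX60, OASL, IFIT2, IFIT3, IFI27 and IFI44, were tested only because they were higher with the compound. Over the 24 genes detected in both the control and the cyclopamine array, 11 were at least 2-fold higher and 0 lower, against 1.62% and 0.512% of all such genes, and the median was 0.85. On chip 2 only TRIM22 was above background with the compound alone, and 35 of the other 42 were at least 2-fold higher and 0 lower, against 3.61% and 1.90%. In the deposited log2 table, which is not background corrected, 8 genes were at least 2-fold higher with cyclopamine and the median was 0.52.

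**Figure D2:**
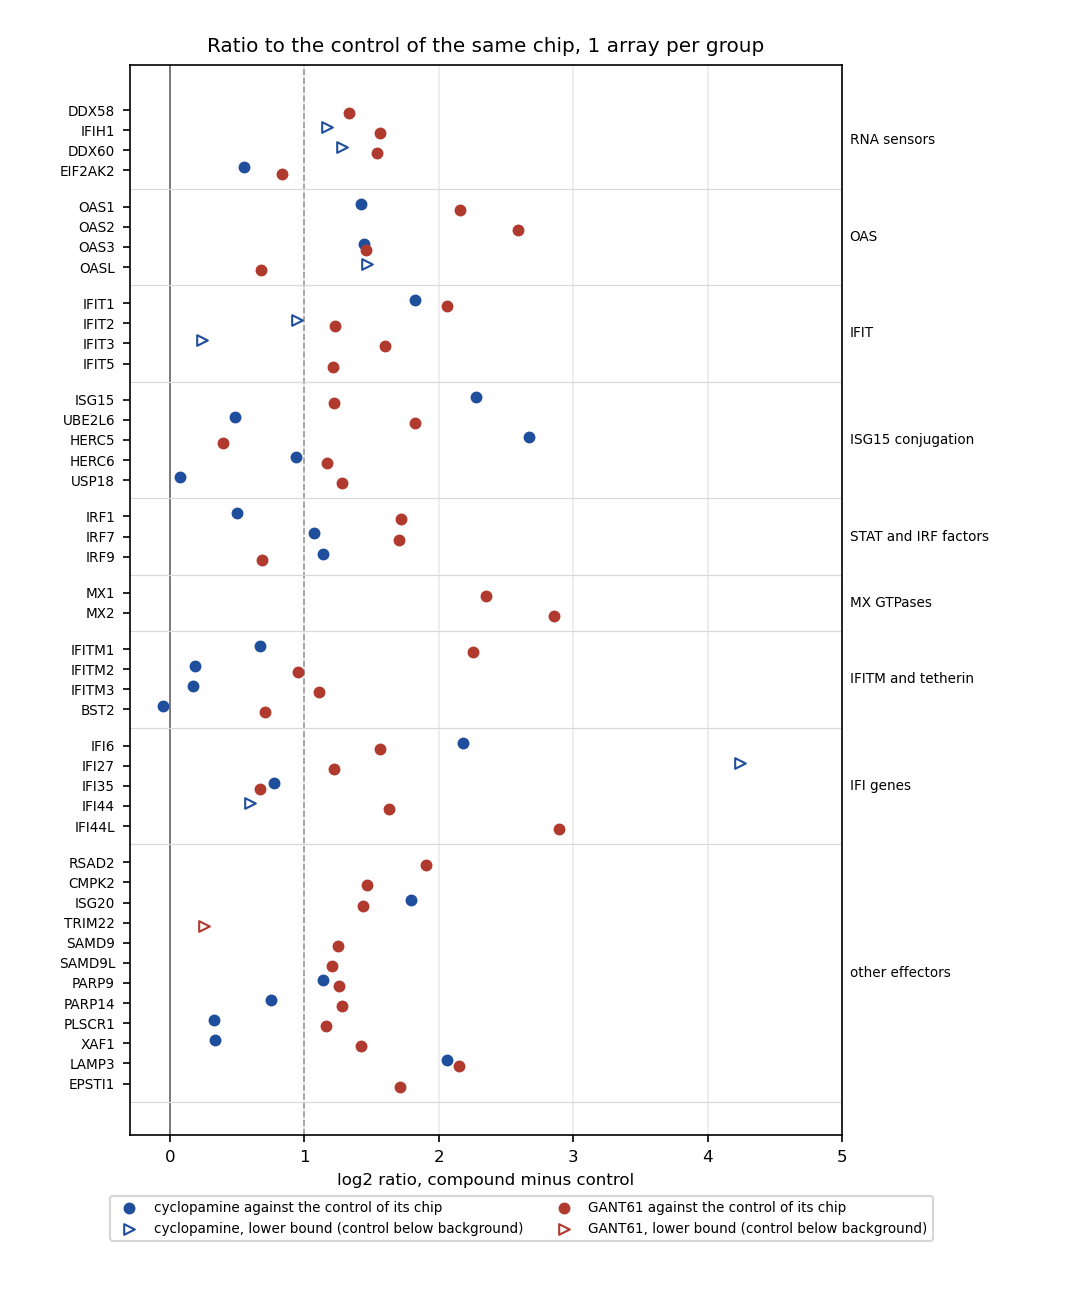
Log2 ratio of each gene with cyclopamine and with GANT61 against the control of the same chip, grouped by function. Filled circles are measured ratios, open triangles lower bounds where the control was below background, and the dashed line marks 2-fold. GANT61 points lie between 0.39 and 2.89 apart from the bound for TRIM22, and most cyclopamine points lie between 0 and 2.7, with the bound of IFI27 far to the right.

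The RNA sensors recognise viral RNA in the cytoplasm. All 4 were higher with GANT61, and on chip 1 only EIF2AK2 was above background on both arrays. IFIH1 (MDA5) binds long double-stranded RNA. Its intensity was below background at 96.0 in the chip 1 control, 156 with cyclopamine, 352 in the chip 2 control and 803 with GANT61. After normalisation it was at least 2.24-fold higher with cyclopamine and 2.95-fold higher with GANT61. DDX60, a helicase reported to promote sensing by the RIG-I family, had 102 (below background), 164, 209 and 449 on the same arrays, at least 2.42-fold and 2.91-fold higher. DDX58 (RIG-I) binds RNA with a 5′ triphosphate. It was under background on both chip 1 arrays, at 94.9 and 96.2, and had 168 and 314 on chip 2, 2.52-fold higher with GANT61. EIF2AK2 (PKR), the kinase that halts translation when it binds double-stranded RNA, had 782, 944, 1119 and 1719, with log2 ratios of 0.55 and 0.84. It was the sensor that stayed under 2-fold with both. The group's median log2 ratio was 1.44 over 4 genes with GANT61 and 1.66 over 3 with cyclopamine, or 1.17 with bounds. With cyclopamine, IFIH1 and DDX60 were tested only because they were above background with the compound, which largely fixes the sign of their ratios.

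The OAS family makes the second messenger that activates RNase L, which then cuts viral and cellular RNA. OAS1 had an intensity of 172 in the chip 1 control, 331 with cyclopamine, 335 in the chip 2 control and 1080.0 with GANT61, or 2.68-fold and 4.46-fold higher. OAS3, the form with most affinity for long double-stranded RNA, had 125, 216, 796 and 1802 on those arrays, with nearly equal folds of 2.72 and 2.75. OAS2 was under background on both chip 1 arrays, at 51.6 and 69.8. On chip 2 it had 437 and 1892, a 6.01-fold difference. OASL lacks the synthetase activity and binds RIG-I. It had 72.2 (below background), 178, 222 and 295, at least 2.76-fold higher with cyclopamine and 1.60-fold with GANT61. Its other probe was under background on both chip 1 arrays, so the cyclopamine value rests on 1 probe. Group medians were 1.81 with GANT61 over 4 genes and 1.44 with cyclopamine over 3.

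IFIT proteins bind viral RNA by its 5′ end and block its translation. IFIT1, which recognises caps that lack a methyl group, had an intensity of 119.7 in the chip 1 control, 245 with cyclopamine, 996 in the chip 2 control and 3251 with GANT61. It was 3.53-fold higher with cyclopamine and 4.17-fold with GANT61, although the chip 2 control already stood above the cyclopamine array. IFIT2, its partner, had 99.8 (below background), 143, 323 and 591, at least 1.92-fold and 2.34-fold higher. IFIT3 stabilises IFIT1 and had 108 (below background), 116, 277 and 626. With GANT61 it was 3.03-fold higher, and with cyclopamine its bound was only at least 1.18-fold. IFIT5 was below background on chip 1, at 62.5 and 55.8, and had 89.9 and 161 on chip 2, a 2.31-fold difference. By the probes used, all 4 were at least 2-fold higher with GANT61, against 3.50% of all genes. The other probe of IFIT1 gave a GANT61 log2 ratio of only 0.71, and the other probes of IFIT3 gave 0.72 and 1.63.

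ISG15 and its conjugation enzymes differed in which compound gave the larger ratio. ISG15, the ubiquitin-like modifier, had 1666 in the chip 1 control and 7183 with cyclopamine, 4.83-fold higher. On chip 2 it had 3656 and 6796, 2.33-fold higher. HERC5, the ligase that attaches ISG15 to new proteins, had 135 in the chip 1 control, 519 with cyclopamine, 118 in the chip 2 control and 136 with GANT61. It was 6.37-fold higher with cyclopamine and 1.31-fold with GANT61, the lowest GANT61 ratio of the 43. UBE2L6, the conjugating enzyme that works before the ligase, ran the other way: 1530.3 and 1794 on chip 1 and 475 and 1306 on chip 2, for log2 ratios of 0.49 and 1.82. Its second detected probe gave lower log2 ratios of 0.13 and 1.19. HERC6, a relative of HERC5, had 112, 144, 523 and 979, with log2 ratios of 0.93 and 1.17. USP18 removes ISG15 and restrains the interferon receptor. It had 138 and 133 on chip 1, a log2 ratio of 0.07 after normalisation that became -0.10 under another normalisation, and 129.8 and 233 on chip 2, 2.43-fold higher. Of the 5 genes, 2 were at least 2-fold higher with cyclopamine and 4 with GANT61, against 3.10% and 3.50% of all genes.

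The transcription factors of the group act at the start and the amplification of the response. IRF9, the DNA-binding partner of STAT2, had an intensity of 357 in the chip 1 control, 636 with cyclopamine, 1270.5 in the chip 2 control and 1774 with GANT61. It was 2.20-fold higher with cyclopamine and 1.60-fold with GANT61. IRF7, which is induced by interferon and then drives interferon genes, had 214, 353, 786 and 2026, or 2.10-fold and 3.25-fold higher. Its second detected probe gave lower log2 ratios of 0.69 and 1.16, and averaging all probes of a gene took the group's medians from 1.07 to 0.59 with cyclopamine and from 1.70 to 1.10 with GANT61. IRF1, known also for its response to interferon gamma, had 415, 485, 368 and 929.6. Its log2 ratios were 0.50 with cyclopamine and 1.72 with GANT61.

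Both MX GTPases, which trap viral nucleocapsids, were measurable on chip 2 alone. MX1 had 1417 in the chip 2 control and 5484 with GANT61, 5.10-fold higher. MX2, the family member known for restricting HIV in human cells, had 176 and 806, 7.25-fold higher. Neither gene reached background on either array of chip 1, at 69.1 and 81.9 for MX1 and 94.7 and 96.3 for MX2, so no difference with cyclopamine was detectable.

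The membrane proteins were the group that differed least with cyclopamine. IFITM proteins block the fusion of virions with endosomes, and their sequences are alike enough that a probe can bind a relative. IFITM1 had 1051 in the chip 1 control, 1422 with cyclopamine, 265 in the chip 2 control and 888 with GANT61. Its log2 ratio was 0.67 with cyclopamine, and it was 4.76-fold higher with GANT61. IFITM3 had 10898 and 10303 on chip 1 and 1637 and 2947 on chip 2. IFITM2 had 11665 and 11079 on chip 1 and 1897 and 3045 on chip 2. Their log2 ratios with GANT61 were 1.11 and 0.95. With cyclopamine they were 0.17 and 0.19, and under another setting they became -0.08 and -0.07. BST2, or tetherin, holds budding virions at the cell surface. It had 2423, 1871, 1147 and 1630.0, with a log2 ratio of -0.05 with cyclopamine, the only ratio below 0 among the 31, and 0.71 with GANT61. Group medians were 0.18 and 1.03.

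The IFI genes held the largest cyclopamine ratio. IFI27, a mitochondrial protein induced by interferon, had an intensity of 90.7 in the chip 1 control, below background, and 1003 with cyclopamine, at least 18.9-fold higher. On chip 2 it had 4703 and 8782, 2.33-fold higher, so that the GANT61 and its control arrays both stood above the cyclopamine array. IFI6, reported to protect cells from flavivirus replication, had 1058, 4186, 1458 and 3517, or 4.53-fold and 2.95-fold higher. Its second probe gave log2 ratios of 2.29 and 2.49, so the probes differ on which compound had the larger ratio. IFI44 had 103 (below background), 127, 648 and 1602, at least 1.51-fold and 3.09-fold higher. Its neighbour IFI44L was below background on chip 1, at 49.9 and 62.2, and had 364 and 1862 on chip 2. That 7.42-fold difference was the largest of the 43 with GANT61, and its other probe gave a log2 ratio of 2.14. IFI35, a regulator of signalling from the sensors, had 897, 1282, 729.7 and 1019, under 2-fold with both compounds at log2 ratios of 0.77 and 0.67.

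Among 12 other effectors, 11 were at least 2-fold higher with GANT61, and 3 of 6 tested with cyclopamine. The shares of all genes were 3.50% and 3.10%. ISG20, an exonuclease that degrades viral RNA, had 788, 2312, 407 and 876 in the order chip 1 control, cyclopamine, chip 2 control and GANT61, or 3.47-fold and 2.70-fold higher. LAMP3, a lysosomal membrane protein, had 131, 333, 104 and 302 on those arrays. It was 4.18-fold and 4.44-fold higher, but its other probe gave log2 ratios of 0.76 and 0.67. PARP9, an ADP-ribosyltransferase that works with a ubiquitin ligase in the interferon response, had 127, 189, 755 and 1513, or 2.20-fold and 2.39-fold higher. PARP14, of the same family, had 172, 224, 933 and 1912, with log2 ratios of 0.75 and 1.28. PLSCR1, a phospholipid scramblase with antiviral activity, had 163, 172, 529 and 979.5, with log2 ratios of 0.33 and 1.16. XAF1, a pro-apoptotic protein, had 155, 165, 269.6 and 547, with log2 ratios of 0.34 and 1.42.

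The remaining 6 effectors were under background on both chip 1 arrays. RSAD2, or viperin, makes a nucleotide that terminates viral RNA synthesis. It had 119 in the chip 2 control and 299.6 with GANT61, 3.75-fold higher. CMPK2, the kinase encoded beside it that supplies its substrate, had 106 and 212, 2.77-fold higher. SAMD9 and SAMD9L are paralogs known for restricting poxviruses: SAMD9 had 749.8 and 1496, and SAMD9L had 96.9 and 172. Their folds were 2.38 and 2.31. EPSTI1 had 279 and 674, 3.28-fold higher. TRIM22, a ubiquitin ligase of the tripartite motif family, was below background in the chip 2 control at 61.2 and had 98.9 with GANT61, at least 1.19-fold higher.

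The compounds could be set side by side, on separate controls, for 31 genes. By normalised ratio 13 were at least 2-fold higher with both, against 0.501% of 8176 genes tested in both: IFIH1, DDX60, OAS1, OAS3, IFIT1, IFIT2, ISG15, IRF7, IFI6, IFI27, ISG20, PARP9 and LAMP3. By lower bounds 12 were, against 0.453%, since the cyclopamine bound of IFIT2 is under 2-fold. Over the 24 genes above background on all 4 arrays, 9 were past 2-fold with both compounds. Another 9 were past it with GANT61 and under it with cyclopamine: UBE2L6, HERC6, USP18, IRF1, IFITM1, IFITM3, PARP14, PLSCR1 and XAF1. HERC5 and IRF9 were past it with cyclopamine and under it with GANT61, and none of these splits could be tested. The remaining 4, EIF2AK2, IFITM2, BST2 and IFI35, were under 2-fold with either. Across all 7306 genes above background on all 4 arrays, the same counts were 28 with both, 221 with GANT61 alone, 87 with cyclopamine alone and 6970 with neither. More genes were thus past 2-fold with GANT61 alone than with cyclopamine alone there too. Ratios were above 0 with both compounds for 30 of the 31 genes, against 28.4% of all genes. Of the 31, 7 were above background with cyclopamine but not in its control, which largely fixes the sign of that ratio. The 1 exception, BST2, was above background on all 4 arrays. The GANT61 ratio was the larger for 20 of 31, against 50.3% of all genes, and the median difference in log2 ratio was 0.24. For the 24 above background on all 4 arrays it was the larger for 18, against 49.9% of such genes, with a median difference of 0.41. Across these 24 genes Pearson's r between the ratios was 0.15 and Spearman's rho 0.21, against 0.23 and 0.21 across all 7306 such genes, as a description of genes that share arrays. The difference between the compounds cannot be told apart from that between the chips.

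**Figure D3:**
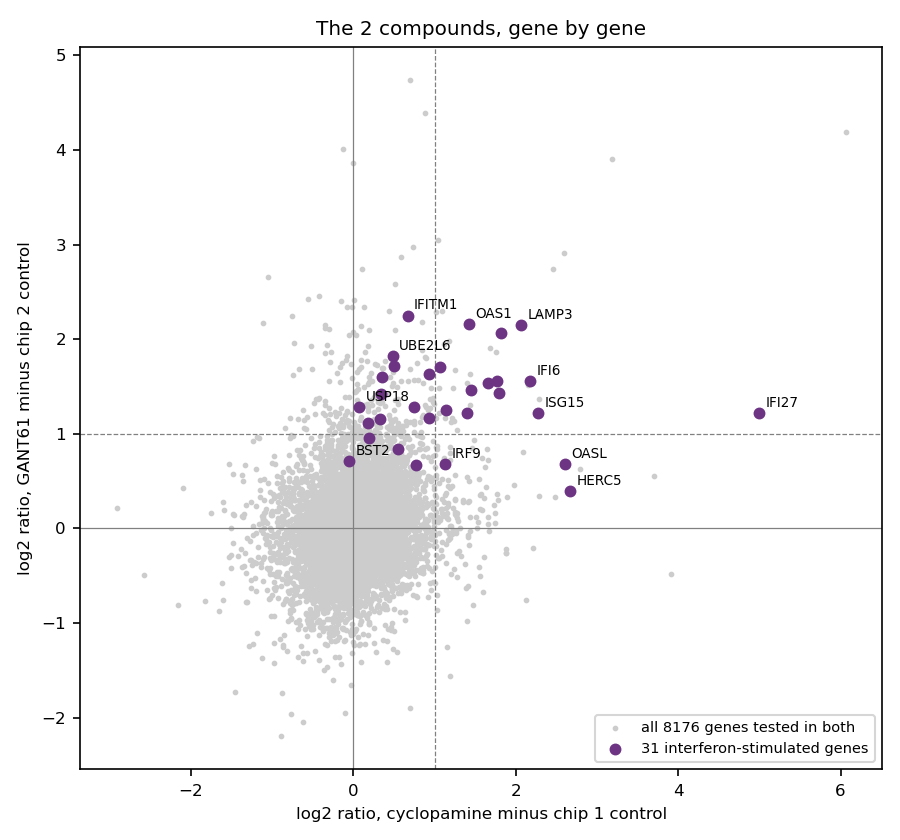
Log2 ratio with GANT61 (vertical) against log2 ratio with cyclopamine (horizontal), each against the control of its chip. Grey points are the 8176 genes tested in both comparisons, purple points the 31 interferon-stimulated genes among them, and dashed lines mark 2-fold. Ratios over a control below background are drawn as normalised, not as bounds. All purple points lie above 0 on the vertical axis, and 13 are drawn past 2-fold on both axes, of which IFIT2 has a cyclopamine bound under 2-fold.

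The levels of these genes also differed between the controls of the chips, whose cell type markers differed as well. Differences of cells and of chips cannot be told apart here. Between the controls 42 genes could be tested: by normalised ratio 23 stood at least 2-fold lower on chip 1 and 6 higher, against 23.3% and 19.1% of 10905 genes. By lower bounds 21 were lower, without DDX58 and MX2, and 6 higher, against 18.3% and 17.8%. Subtracting chip 2 from chip 1 gave a median log2 difference of -1.43 (-1.03 with bounds), and of -0.11 over all genes. IFI27 was at least 82.2-fold lower on chip 1, MX1 at least 23.0-fold, IFIT1 12.9-fold and SAMD9 at least 11.1-fold. IFI44 was at least 9.31-fold lower there, OAS3 9.02-fold and PARP9 8.23-fold. The 6 higher on chip 1 were IFITM1 (5.38-fold), IFITM2 (5.35-fold), IFITM3 (5.81-fold), BST2 (2.02-fold), UBE2L6 (3.72-fold) and ISG20 (2.30-fold). All 4 membrane proteins were thus higher on chip 1, while the OAS, IFIT and MX genes that were at least 2-fold apart were lower there. Over the 24 genes above background in both controls, 9 were at least 2-fold lower and 6 higher, against 16.5% and 18.8%, with a median of -0.52. The normalised level was highest with GANT61 for 33 genes, with cyclopamine for 9 and in the chip 1 control for 1, BST2.

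**Figure D4:**
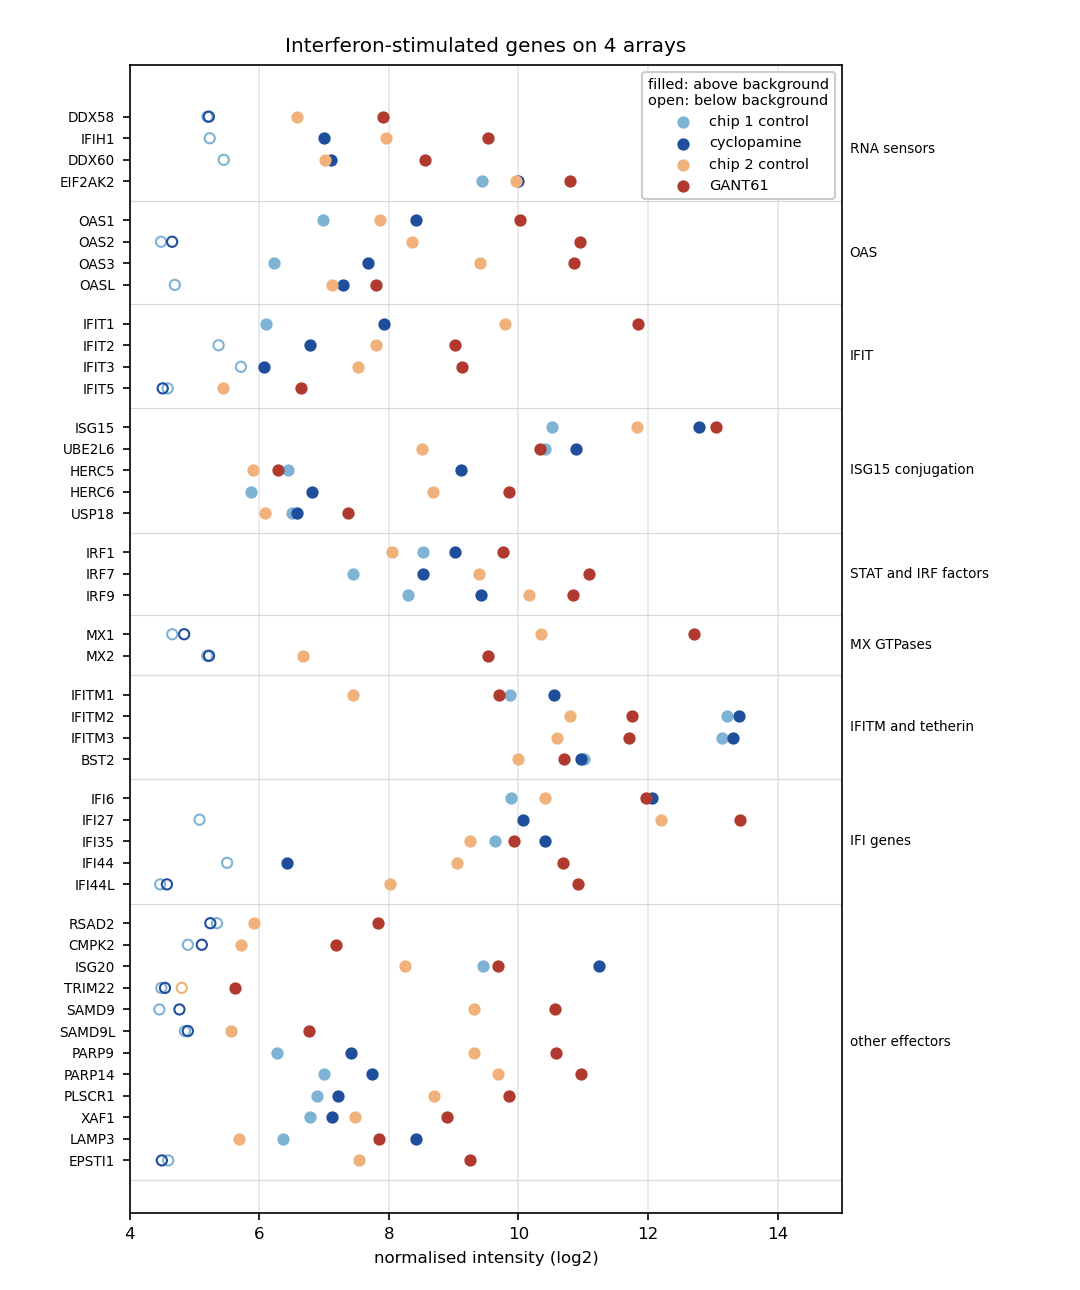
Normalised log2 intensity of the 43 genes on the 4 arrays, grouped by function. Each point is 1 array, and open points were below background. GANT61 stands right of the chip 2 control in every row, and many chip 1 points in the OAS, IFIT, MX and IFI groups are open.

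Interferon genes were mostly below background, and the measured genes of the signal relay were under 2-fold with either compound. Of 21 interferon genes with a probe, only IFNE, an epithelial type I interferon, was above background on any array, with 205.5 in the chip 2 control and 151.1 with GANT61 and a log2 ratio of -0.47. Low or brief transcription of the other 20 was not detectable with these probes. Of the receptors and signal relay, 13 genes could be tested with cyclopamine and 12 with GANT61, and 0 were at least 2-fold apart in either direction with either compound, with medians of 0.02 and 0.23. At the shares of all genes given above, lists of this size would hold few such genes or none, so the counts say nothing particular of the relay. Past 1.5-fold by ratio were IFNLR1, the interferon lambda receptor chain (0.71), and CISH, a feedback inhibitor (-0.70, at least 1.15-fold lower), with cyclopamine, and IFNGR2, an interferon gamma receptor chain (0.66), with GANT61. JAK1, the kinase shared by the interferon receptors, had log2 ratios of 0.40 and 0.44, TYK2, its partner at the type I receptor, -0.12 and 0.05, and the receptor chains IFNAR1 and IFNAR2 0.09 and -0.23 with cyclopamine and 0.23 and -0.09 with GANT61.

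Sensing genes outside the 44 had medians of 0.23 over 13 tested with cyclopamine and 0.04 over 16 with GANT61. CGAS, the sensor of cytoplasmic DNA, was at least 2-fold higher with cyclopamine at a log2 ratio of 1.25. DHX58 (LGP2), a relative of RIG-I, and TICAM1 (TRIF), the adaptor of TLR3, had 1.18 and 1.15 with GANT61. A further list of interferon-stimulated genes had lower medians than the 44. With GANT61, 7 of 33 passed 2-fold upward and 0 downward, against 3.50% and 2.03% of all genes. The median was 0.44, or 0.32 with bounds. The list was led by HELZ2, a helicase coactivator (1.64), TAP1, the antigen peptide transporter (1.56), SHFL, an inhibitor of frameshifting (1.34), and PARP10 (1.27). With cyclopamine, 1 of 22 was at least 2-fold higher, HELZ2 at 1.43, and 1 lower, GBP2, a guanylate-binding protein, at -1.37, which is near the 3.10% and 1.91% of all genes, and the median was 0.32. Genes known mainly from interferon gamma were mostly below background: 3 of 12 could be tested with cyclopamine and 4 with GANT61. ICAM1, an adhesion molecule, had 1.59 with cyclopamine, and WARS1, a tRNA synthetase, 1.14 with GANT61.

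Different probes of a gene gave a measure of technical spread, which covers neither culture nor labelling. Over all genes with several probes above background on both arrays, the SD of 1 probe's log2 ratio was 0.24 with cyclopamine (1823 genes) and 0.27 with GANT61 (2343 genes). For the interferon-stimulated genes it was larger, 0.45 over 5 genes and 0.55 over 12, though the probes of each of these genes had the same sign. OAS1 gave cyclopamine ratios of 1.42 and 1.68 at its probes above background on both arrays, and GANT61 ratios of 2.16, 1.99 and 2.08. OAS2 gave 1.89 and 2.26 with GANT61 at such probes, against 2.59 at the one used. For 30 of the 43 genes there was only 1 probe.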

How the data were processed

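Total RNA was amplified, labelled with biotin and hybridised to Illumina HumanHT-12 V4 arrays, per the labels' protocols. The deposited tables hold an intensity and a detection p-value for each of 47227 probes shared by the chips, and the deposited series table holds log2 values that equal the log2 of those intensities within 5e-09. The software behind these intensities is not given in the sources used here. Starting from the authors' intensities, the neqc function of limma 3.58.1 (R 4.3.3) corrected the background and normalised the arrays. It used a normal-exponential model, offset 16 and quantiles over 4 arrays. The steps were run on simulated arrays built from the chip 2 control, with folds set in bright genes alone. That check covers neither dim genes nor the difference between the chips. Printed intensities are the deposited ones, so their quotients differ from the normalised folds. The offset compresses ratios of dim probes, while background correction widens them. With no background correction 111 genes in all were at least 2-fold higher with cyclopamine, against 279. Cyclopamine ratios of dim genes depend on these steps and on the probe rule. Over the alternatives the log2 ratios of IFIT1, OAS3 and PARP9 with cyclopamine fell as low as 0.97, 0.72 and 0.57. A gene is its brightest probe by mean normalised log2 level, among 30111 probes with 1 symbol. Log2 ratios for the compounds were taken within a chip, and those of the 2 controls across the chips. Each was taken for genes whose detection p was under 0.01 on either array, and called at 2-fold. Where 1 array was below background, the fold is a lower bound against the higher of the lowest detected level on that array and the probe's own. With 1 array per group there is no test and no p-value. All members are named, with up to 4 genes past 2-fold from each other list and the partners of STAT2 and IRF9. Members and lists were chosen with earlier results of these data known. The motif search, the promoters printed, holding each gene's probe fixed across alternatives, and the tolerance used in the closing section were chosen after values were seen. Alternatives changed the normalisation, offset, background correction, detection filter, probe rule or fold threshold.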

Additional observations from a re-analysis of the deposited data

How the results depend on the processing

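Members called higher numbered 24 to 42 with GANT61 and 8 to 21 with cyclopamine over 11 alternatives, with 0 lower in each. The upper ends, 42 and 21, are counts at the 1.5-fold threshold, against 35 and 16 at 2-fold in the main processing. In all alternatives that kept the 2-fold threshold and tested the gene, 22 of 43 and 7 of 31 stayed past it. Of the 7, OASL and IFI27 could not be tested where detection on both arrays was required. The member medians ranged from 1.02 to 1.43 with GANT61, 0.52 to 1.09 with cyclopamine and -1.89 to -0.52 between the controls, and the difference between the compounds from 0.17 to 0.76. A value with no test was taken as moved when it shifted by over 1.96 times the SD between probes. This tolerance replaced 1 SD after the first results had been seen, and the choice lowers the number of moved values: for single members 59 of 976 moved, against 213 at 1 SD, and for medians 23 of 250, against 75. Signs turned for USP18, IFITM2 and IFITM3 with cyclopamine and for HERC5 (to -0.13) and USP18 (to -0.29) between the controls. No other member turned. Scaling to medians and using the series table moved the median of all genes to -0.25 and -0.19 with cyclopamine and to -0.20 and -0.11 with GANT61.

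In the series table, with no background correction or normalisation, 61 genes in all were higher and 76 lower with cyclopamine and 183 and 132 with GANT61. There 8 members were higher with cyclopamine, the member median was 0.52, and group medians were 0.69 (RNA sensors), 0.95 (OAS), 0.52 (IFIT), 0.36 (ISG15 conjugation) and 0.47 (other effectors), with 2.07 for MX with GANT61. With no background correction, 111 genes were higher and 31 lower with cyclopamine, 242 and 89 with GANT61, and the cyclopamine medians were 1.00 (RNA sensors) and 0.81 (IFIT). With an offset of 50, 122 were higher and 39 lower with cyclopamine, 105 lower with GANT61, cyclopamine medians were 1.15 (RNA sensors) and 0.93 (IFIT), and IFI genes differed by -2.39 between the controls. Calling genes below background on 1 array by their lower bounds, an alternative chosen after seeing the data, left 159 higher and 57 lower with cyclopamine. With neqc within each chip, 93 were lower with cyclopamine. With median scaling, 125 were higher with cyclopamine and 416 lower with GANT61. Calls on the higher side were 61.9% with cyclopamine and 63.3% with GANT61, 34.7% and 37.2% after scaling to medians, 44.5% and 58.1% in the series table and 78.2% and 73.1% with no background correction.

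Requiring detection on both arrays tests fewer genes and left 130 higher and 41 lower with cyclopamine, and an RNA sensor median of 0.55 that rests on EIF2AK2. Between the controls it left 9 members lower, an IFIT value of -3.69 that rests on IFIT1, and a median of -0.071 over 2 IFI genes. Without a detection filter the cyclopamine medians were 0.55 (members), 1.11 (RNA sensors), 0.88 (IFIT), 0.93 (IFI genes) and 0.32 (other effectors). Averaging probes gave 0.59 with cyclopamine and 1.10 with GANT61 for the IRF factors and -1.80 between the controls for IFI genes. At 1.5-fold, 882 genes were higher and 704 lower with cyclopamine and 1104 and 970 with GANT61. Apart from the detection rules, the cause of these shifts was not tested. No paired analysis was possible because each group has 1 array and no replicate numbers. Genes below background on an array have only bounds there.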
